A study of Leucocroton havanensis with 4 samples.

Results

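The steady abundant contigs are 45 of the 65936 contigs counted in this series of Leucocroton havanensis, a nickel hyperaccumulator of the Euphorbiaceae that is endemic to Cuba. A contig is one assembled transcript sequence, known here by a number only. Members were chosen by read level, given as CPM, the reads of a contig per 1000000 counted reads of its library. A member had at least 200 CPM in each of the 4 libraries, and its highest CPM was at most 1.5 times its lowest. Of the 228 contigs with at least 200 CPM in each library, 45 met the second condition and 183 did not. The choice used the same counts that are described here, so steadiness itself is not a finding, and no test is given for it.

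Plantlets were raised in vitro for 6 weeks after germination on agar-solidified Murashige and Skoog medium, with or without nickel, and their roots and shoots were taken separately; the labels give no line or genotype. The organs of plantlets raised without nickel are called control root and control shoot here, and those raised with it nickel root and nickel shoot. The growth protocol states 500 mg/L NiSO4 and is worded alike for all samples, and it was read as the dose of the samples labelled nickel. Each group had 1 library, with no replicate, and the labels do not say how many plantlets entered it. The nickel shoot library was labelled as a re-analysis of one from an earlier series. In shoot, therefore, the treatment and the origin of the library cannot be told apart. Nor can organ and origin be told apart between nickel root and nickel shoot. The labelled organs could not be checked against marker genes, because the files used here pair no contig with a gene name. For the same reason no role is given to any member, and no sequence of a contig was used here. The libraries held from 55660570 to 98108920 counted reads.

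Transcripts with even levels across organs and treatments serve as internal references in plant expression work. Genes for the basic machinery of cells, such as the cytoskeleton, translation and protein turnover, are the usual candidates, and whether a candidate is steady has to be measured in each tissue and treatment. Sequencing reports each transcript as a share of the library, so a steady CPM means a steady share, and an abundant transcript that differs between organs moves the shares of all others. In whole organs, fewer cells of a type and less RNA per cell cannot be told apart. Nickel hyperaccumulators carry nickel from root to shoot and store it there, which makes root and shoot the natural organs to compare.

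One contig stood far above the other 44 in reads. Lhav_v2_contig_214 had 7496 CPM in control root, 7109.8 CPM in nickel root, 7436 CPM in control shoot and 6270.2 CPM in nickel shoot. It was the 4th most abundant contig of both root libraries, the 5th of control shoot and the 7th of nickel shoot. It alone carried 30.3% and 30.4% of the members' reads in control and nickel root, and 32.3% and 28.6% in control and nickel shoot. Contig lengths were not used here, so these are shares of reads and not numbers of molecules.

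The next members by mean read level lay about an order of magnitude below. Lhav_v2_contig_364 had 854 CPM in control root, 817 CPM in nickel root, 726 CPM in control shoot and 651 CPM in nickel shoot. Both root libraries thus exceeded both shoot libraries, and in each organ the library with nickel was the lower one. Lhav_v2_contig_26 had 839 CPM in control root, 643 CPM in nickel root, 600.1 CPM in control shoot and 891 CPM in nickel shoot. Its root and shoot values overlapped, and its nickel difference pointed down in root and up in shoot. Over all members the median of the mean CPM was 326, against 591 for the 183 other abundant contigs. Only 7 members reached a mean of 500 CPM, and 16 lay under 300 CPM. The lowest read number of any member in any library was 11707.

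**Figure D1:**
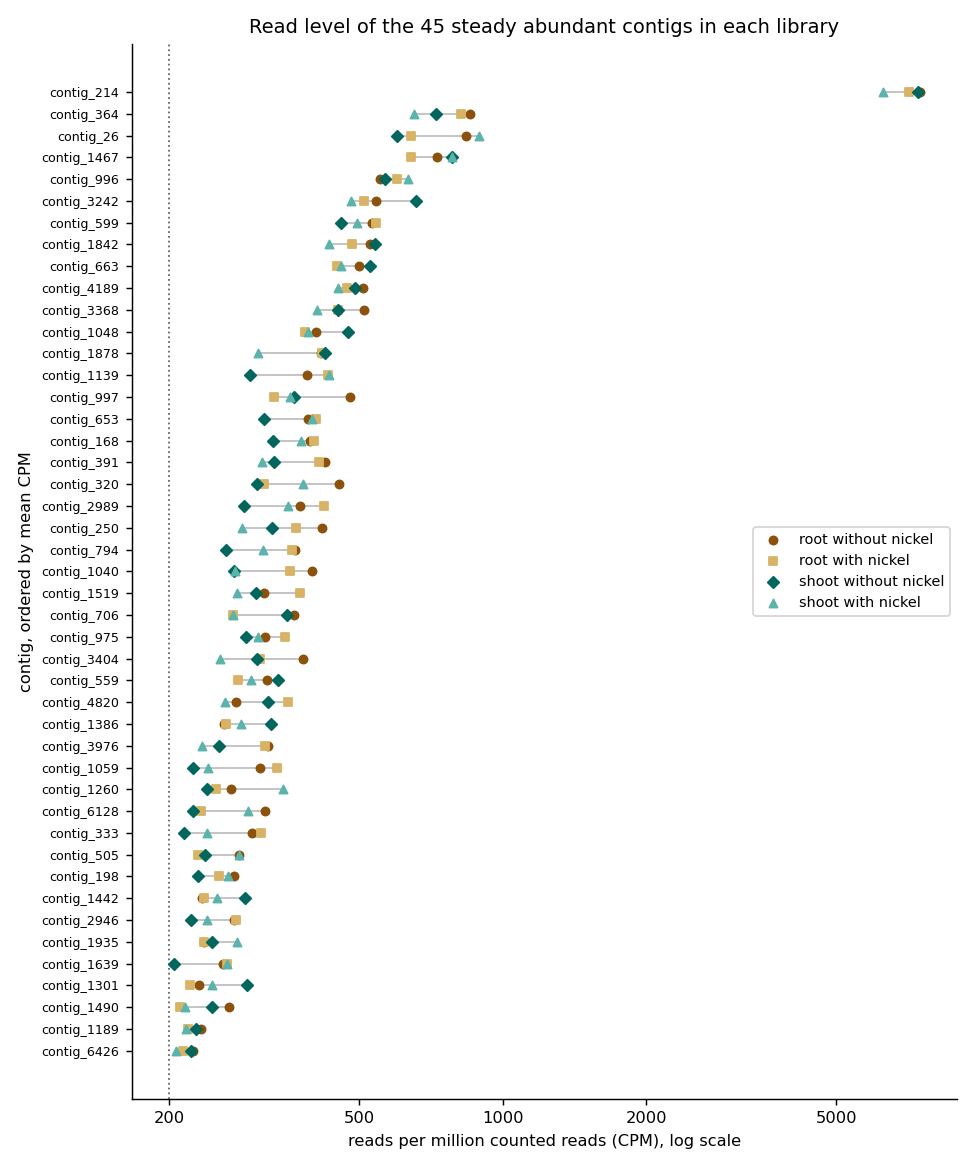
Read level of each of the 45 contigs, in CPM on a log axis, with 1 symbol per library and a grey line from the lowest to the highest value. The dotted line marks 200 CPM, and contig_214 lies from 6270.2 to 7496 CPM, while no other value exceeds 891 CPM.

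The 2 most even members were among the least abundant ones. Lhav_v2_contig_1189 had 233 CPM in control root, 219 CPM in nickel root, 228 CPM in control shoot and 217 CPM in nickel shoot. Its highest value was 1.08 times its lowest. Lhav_v2_contig_6426 had 224 CPM, 214 CPM, 222 CPM and 207 CPM in the same order, and its highest value was also 1.08 times its lowest. These were the only members with a ratio of at most 1.1, whereas 9 had at most 1.2, 23 at most 1.3 and 33 at most 1.4. The 9 included the most abundant member, Lhav_v2_contig_214, with a ratio of 1.195. The median ratio was 1.29 for the members, compared with 2.23 for all 228 abundant contigs.

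The limits of the rule lay within a continuous range of values. Just inside the limit on the ratio, Lhav_v2_contig_1059 had 310 CPM in control root, 337 CPM in nickel root, 225 CPM in control shoot and 242 CPM in nickel shoot, with a ratio of 1.4994. Lhav_v2_contig_3404 followed with 381 CPM, 310 CPM, 306 CPM and 256 CPM in the same order and a ratio of 1.49. In both, root lay above shoot. Just outside it, Lhav_v2_contig_1790 had 329.5 CPM, 317 CPM, 391 CPM and 477 CPM in the same order, a ratio of 1.501, with shoot above root. Lhav_v2_contig_883 had 348 CPM, 343 CPM, 229 CPM and 275 CPM, a ratio of 1.52, with root above shoot. Between ratios of 1.4 and 1.5 lay 12 members, and another 10 abundant contigs lay between 1.5 and 1.6. At the limit on read level, the member with the lowest single value was Lhav_v2_contig_1639, with 204 CPM in control shoot and 259 CPM, 264.3 CPM and 264.3 CPM in control root, nickel root and nickel shoot. Lhav_v2_contig_4765 missed that limit with 198 CPM in nickel shoot, beside 257 CPM, 229 CPM and 219 CPM in control root, nickel root and control shoot.

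Steadiness was less frequent at the highest read levels than at middle ones. Among contigs whose lowest CPM lay from 50 to 100, 416 of 1366 (30.5%) stayed within 1.5-fold over the 4 libraries. From 100 to 200 CPM these were 126 of 478 (26.4%), and from 200 to 400 CPM 34 of 159 (21.4%). From 400 to 800 CPM they were 10 of 48 (20.8%), and at 800 CPM or more 1 of 21 (4.76%), which was Lhav_v2_contig_214. In the class of the fewest reads, from 1 to 10 CPM, the share was 1747 of 12660 (13.8%).

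**Figure D2:**
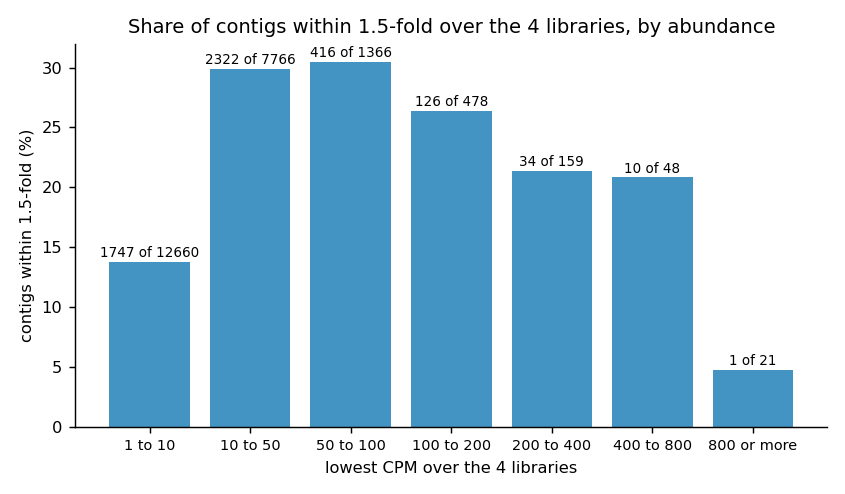
Share of contigs, in percent, whose highest CPM is at most 1.5 times their lowest, for classes of the lowest CPM over the 4 libraries, with the numbers of contigs above the bars. The share is 30.5% from 50 to 100 CPM and 4.76% at 800 CPM or more; the last 3 bars together hold the 45 steady abundant contigs.

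Together the members took a small and rather even part of each library. Their share of the counted reads was 2.48% in control root (95% exact binomial interval 2.47% to 2.48%) and 2.34% in nickel root (2.33% to 2.34%). It was 2.304% in control shoot (2.301% to 2.308%) and 2.19% in nickel shoot (2.189% to 2.194%). The highest share was 1.13 times the lowest, and within each organ the library with nickel had the lower share. That direction is one of the summed reads of members chosen on total counts. It turned for contigs chosen by TMM, with 2.433% and 2.437% in control and nickel root and 2.09% and 2.21% in control and nickel shoot. It turned likewise for contigs chosen by DESeq2 size factors. These intervals cover counting error only, and reads of a pair or of PCR copies are not independent molecules. Without Lhav_v2_contig_214 the shares were 1.73%, 1.62%, 1.561% and 1.565% in control root, nickel root, control shoot and nickel shoot. The intervals of the shoot libraries then overlapped, so the lower share with nickel in shoot rested on that contig. The 183 other abundant contigs held 19.9% of the reads of control root, 20.4% of nickel root, 24.6% of control shoot and 22.4% of nickel shoot, so their share was higher in shoot.

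On the total-count scale, a difference between root and shoot remained inside the limit. Without nickel, 32 of the 45 members had more CPM in root and 13 had more in shoot, with a median log2 ratio of root over shoot of 0.18 (quartiles -0.032 and 0.35). With nickel the median was 0.048 (quartiles -0.089 and 0.25), with 26 higher in root and 19 higher in shoot. The rule bounds each such log2 ratio at 0.58 in size. The 183 other abundant contigs had medians of 0.55 and 0.49 in these comparisons, and all contigs of mean CPM 10 or more had medians of 0.33 and 0.26. The members' medians were thus closer to 0 than those of either wider set, and the bound of the rule holds them near it.

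In 15 members both root libraries exceeded both shoot libraries by total counts, and in 5 members both shoot libraries exceeded both root libraries. Over all 60628 contigs with at least 10 reads in a library, the shares with these orders were 37.6% and 29.6%, and nothing is read from the members' counts, since the rule used the same values. The 5 members on the shoot side, named after their values were seen, were Lhav_v2_contig_1467, Lhav_v2_contig_1386, Lhav_v2_contig_1442, Lhav_v2_contig_1935 and Lhav_v2_contig_1301. The first of these was the most abundant, with 727 CPM in control root, 642 CPM in nickel root, 782 CPM in control shoot and 784 CPM in nickel shoot. The library with the highest value of a member was control root for 18 members, nickel root for 11, control shoot for 9 and nickel shoot for 7. The lowest value lay in control shoot for 17 members, in nickel shoot for 15, in nickel root for 9 and in control root for 4.

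**Figure D3:**
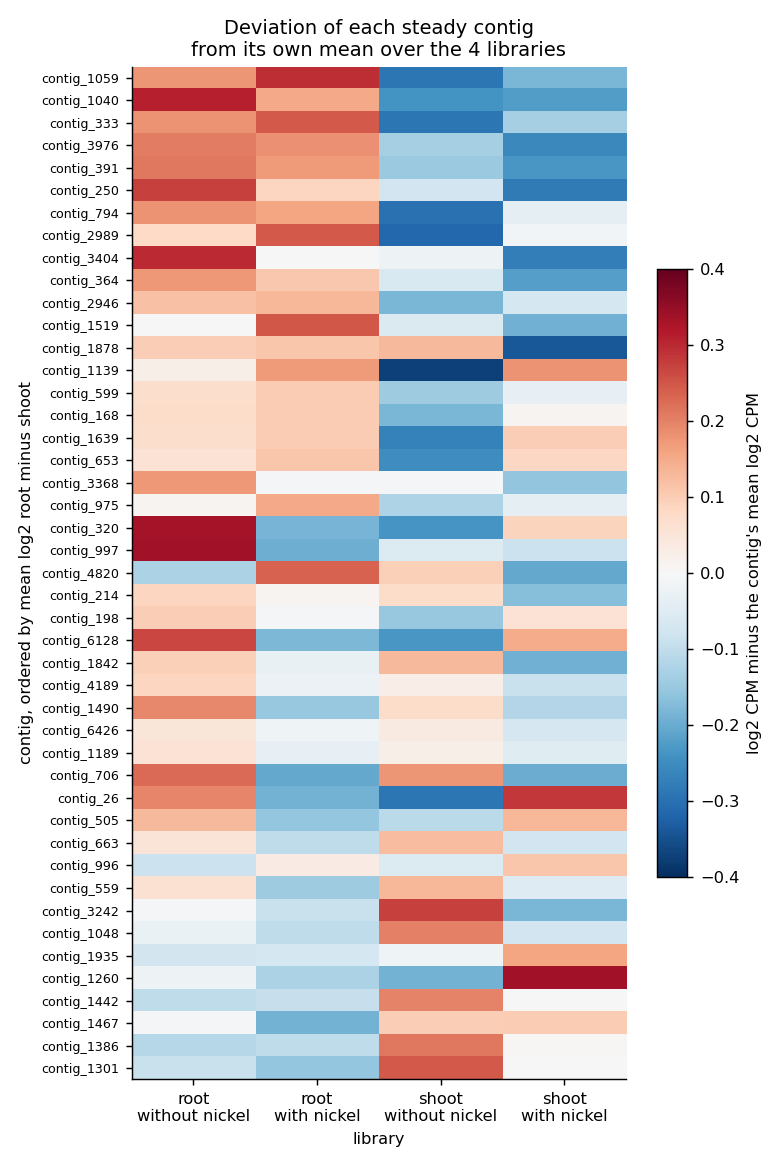
Log2 CPM of each of the 45 contigs minus its own mean over the 4 libraries, as colour (red above, blue below), with libraries as columns and contigs ordered by their mean log2 difference of root minus shoot. Contigs at the top are higher in root and those at the bottom higher in shoot, and contig_26 and contig_4820 show opposite nickel differences in the organs.

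On the total-count scale, the members with fewer CPM under nickel outnumbered those with more in both organs. In root, 17 members had more CPM with nickel and 28 had less, with a median log2 ratio of -0.067 (quartiles -0.18 and 0.030). In shoot, 21 had more and 24 had less, with a median of -0.070 (quartiles -0.20 and 0.19). The 183 other abundant contigs had medians of -0.073 in root and -0.0054 in shoot. Averaged over nickel levels on the same scale, the median size of the organ difference was 0.17 on the log2 scale. Averaged over organs, the median size of the nickel difference was 0.11. The organ difference was the larger one for 25 members and the nickel difference for 20. These sizes were computed on the total-count scale only. By TMM the same members had nickel medians of -0.21 in root and -0.33 in shoot. Their organ medians by TMM were smaller in size, -0.028 without and -0.050 with nickel. By DESeq2 size factors, too, the nickel medians were the larger in size.

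By total counts, nickel differences pointed the same way in root and shoot in 31 members and opposite ways in 14. Both were upward in 12 members and downward in 19. By TMM, only 3 members had more with nickel in root and 8 in shoot, so the counts given here belong to the total-count scale. Root was higher and shoot lower with nickel in 5 members, and the reverse held in 9. Where both exact 95% intervals also excluded a fold of 1, these were 2 and 6 members. Over all 60628 contigs, the corresponding shares were 5.04% and 7.02%, and nothing is read from the members' counts, for the reason given above. In 13 members both libraries with nickel lay below both without, and in 4 both lay above. Over all 60628 contigs these orders were found in 2.78% and 15.8%, and again nothing is read from the comparison, since the rule used these values. The 4 members above, named after their values were seen, were Lhav_v2_contig_996, Lhav_v2_contig_1139, Lhav_v2_contig_653 and Lhav_v2_contig_1639. Lhav_v2_contig_996 had 554 CPM in control root and 601 CPM with nickel, and 566 CPM in control shoot and 635 CPM with nickel.

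The members at the ends of the nickel comparisons used most of the room that the rule leaves. Lhav_v2_contig_4820 had the highest log2 ratio in root, 0.36 (95% exact interval 0.33 to 0.39). It had 276 CPM in control root, 354 CPM in nickel root, 322 CPM in control shoot and 261 CPM in nickel shoot. Its nickel difference was thus upward in root and downward in shoot. Lhav_v2_contig_997 had the lowest log2 ratio in root, -0.53 (95% exact interval -0.56 to -0.50). It had 479 CPM in control root, and the other libraries lay close together, with 332 CPM in nickel root, 366 CPM in control shoot and 358 CPM in nickel shoot. In shoot the highest log2 ratio was that of Lhav_v2_contig_26, 0.57 (95% exact interval 0.56 to 0.59), whose values are given above. The lowest in shoot was that of Lhav_v2_contig_1878, -0.47 (95% exact interval -0.49 to -0.45). It had 416 CPM in control root, 419 CPM in nickel root, 425 CPM in control shoot and 307 CPM in nickel shoot, so the last of these libraries alone stood apart.

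Steady did not mean equal within counting error. An exact interval of the fold excluded 1 for 37 of the 45 members for nickel in root, and for 43 for nickel in shoot. It did so for 44 members between control root and control shoot and for 40 between nickel root and nickel shoot. Over all 60628 contigs the corresponding shares were 40.5%, 58.9%, 67.4% and 72.3%. The members have far more reads than most contigs and the rule used these ratios, so nothing is read from their counts. The widest of these intervals reached 0.036 to either side on the log2 scale. Without replicates, the spread between plantlets or libraries of one group is unknown, and no member is called different between groups.

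Each library was also left out of the choice in turn. Contigs were chosen by the same limits on 3 libraries and then read in the library left out. With nickel root left out, 54 contigs were chosen, and 45 of them (83.3%) also stayed within 1.5-fold over all 4 libraries. With control root left out, 45 of 61 (73.8%) stayed. With control shoot left out, 48 of 74 (64.9%) stayed, and with nickel shoot left out, 50 of 95 (52.6%) stayed. The rule fixes that the 45 members are among the contigs that stayed, so these shares differ mainly through the number chosen on 3 libraries. The remaining 3 and 5 for the shoot libraries had less than 200 CPM in the library left out. Chosen without the nickel shoot library, the 95 contigs had a median log2 ratio of -0.067 for nickel in root and of 0.059 between the control organs, root over shoot, against -0.067 and 0.18 for the 45 members. The organ median moved the other way, to 0.31, when control shoot was left out of the choice. That choice sets no bound on control shoot, a side of this ratio, so the moves are not alike. The median was 0.13 when nickel root was left out. The 95 contigs took 5.63% of the reads of control root, 5.46% of nickel root and 5.47% of control shoot.

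The distance of the left-out library from the geometric mean of the other 3 took no part in the choice on those 3. It also put the root libraries above the shoot libraries. Of the contigs chosen on 3 libraries, 90.7% lay within 1.5-fold of that mean in nickel root, 91.8% in control root, 77.0% in control shoot and 66.3% in nickel shoot. Among abundant contigs that were not steady in the 3 libraries, the shares were 40.6%, 33.0%, 34.3% and 34.6% in the same order. Over both sets together they were 51.9%, 47.9%, 46.8% and 46.3%. In each library the share within this distance was higher for contigs even in the other 3 than for the rest. The rest were uneven in those 3 libraries by the choice, so nothing is read from the higher shares. The rule also fixes that the 45 members are among the chosen contigs within this distance. These contigs numbered 49, 56, 57 and 63 in the same order. The comparison therefore says nothing about the members. The difference was not tested, since contigs of one library are not replicates. This distance was a choice made after seeing the data.

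The chosen contigs that lay farthest away show what evenness in 3 libraries leaves possible. Lhav_v2_contig_15984 had 241 CPM in control root, 255 CPM in nickel root and 259 CPM in control shoot, but 34.2 CPM in nickel shoot, 7.35-fold below the mean of the others. Lhav_v2_contig_2751 had 332 CPM, 316 CPM and 433 CPM in control root, nickel root and nickel shoot, but 1078 CPM in control shoot. Lhav_v2_contig_721 had 429 CPM in control root and 244 CPM in nickel root, beside 533 CPM and 517 CPM in control and nickel shoot. Lhav_v2_contig_1359 had 1211 CPM in control root and 774 CPM in nickel root, beside 623 CPM and 687 CPM in control and nickel shoot. More than 2-fold from the mean of the others lay 12 of 95 chosen contigs in nickel shoot, 4 of 74 in control shoot, 1 of 54 in nickel root and 0 of 61 in control root. Among the other abundant contigs these were 59 of 162 in nickel shoot, 67 of 178 in control shoot, 61 of 179 in control root and 52 of 187 in nickel root. Those contigs were uneven in the other 3 libraries by the choice, so their distances cannot show whether 1 library stands apart. The library with the most such chosen contigs is the re-analysed one, and the part of library origin in these counts was not tested.

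**Figure D4:**
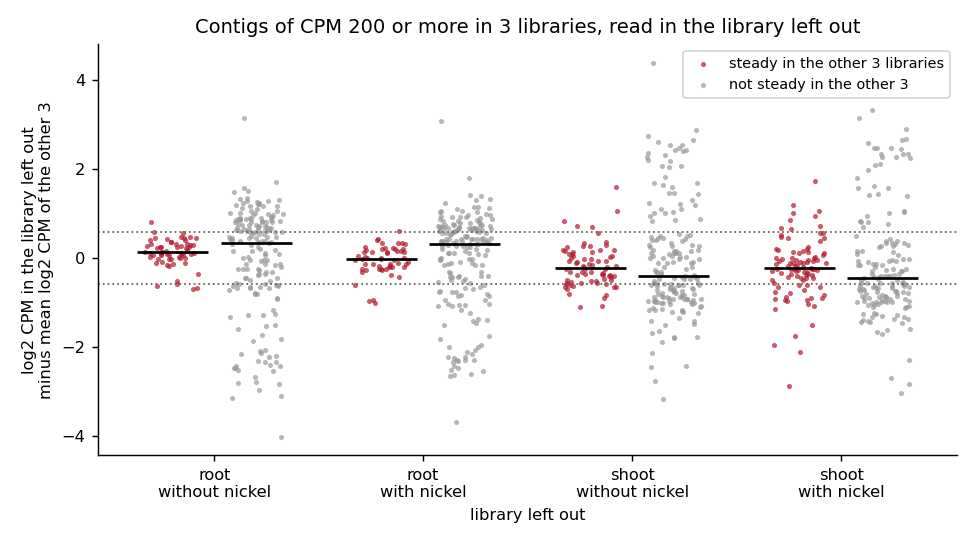
Log2 CPM in the library left out minus the mean log2 CPM of the other 3, for contigs of at least 200 CPM in those 3, with red points for contigs within 1.5-fold in them, grey points for the rest, black lines for medians and dotted lines at 1.5-fold. Red points scatter least in the root libraries and most in nickel shoot, where 1 lies 7.35-fold below.

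As a reference for scaling, the members gave library sizes close to the total counts. Relative to the total counts, with a geometric mean of 1, the size from summed member reads was 1.07 for control root, 1.0045 for nickel root, 0.991 for control shoot and 0.943 for nickel shoot. TMM, the trimmed mean of ratios over all tested contigs, gave 1.002, 1.11, 0.867 and 1.04 in the same order. The size factors of DESeq2, which are medians of ratios, gave 1.005, 1.11, 0.831 and 1.08. Members and tools thus moved the shoot library with nickel and the root library with nickel in different directions relative to control root. Because the members were chosen on total-count CPM, closeness to total counts is built into them.

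The size of the nickel medians and the direction of the organ medians depended on the scale. A change of scale shifts all contigs of a library alike. By TMM, 42 of the 45 members had less with nickel in root and 37 had less in shoot, with median log2 ratios of -0.21 and -0.33. By DESeq2 size factors these were 41 and 41 members, with medians of -0.21 and -0.44. For the same 45 members, the organ median without nickel turned from 0.18 by total counts to -0.028 by TMM and -0.093 by DESeq2 size factors. With nickel it turned from 0.048 to -0.050 and -0.0013. For contigs also chosen on the scale of the tool, the organ median without nickel stayed positive, at 0.13 by TMM and 0.12 by DESeq2 size factors.

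**Figure D5:**
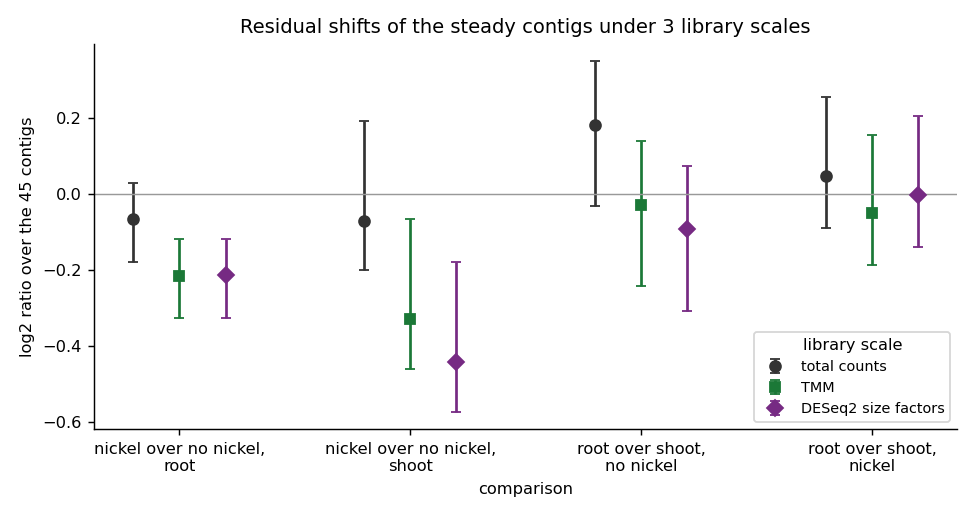
Median log2 ratio over the 45 contigs (symbols) with quartiles (bars) in 4 comparisons, under library sizes from total counts, TMM and DESeq2 size factors. Both nickel medians are near -0.07 by total counts and between -0.21 and -0.44 by the other scales, and the organ medians lie on both sides of 0.

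The membership depends on the scale too. With TMM-scaled CPM, 41 contigs met the rule, of which 28 were shared with the 45 (68.3% of the TMM list and 62.2% of the members). With DESeq2 size factors 38 met it, of which 23 were shared (60.5% of that list and 51.1% of the members). The same 23 members met the rule under all 3 scales. Lhav_v2_contig_214 was not among these, since its highest value was 1.53 times its lowest by DESeq2 size factors. The pair of most even members, Lhav_v2_contig_1189 and Lhav_v2_contig_6426, was not among them either, since their lowest values were 197 and 193 CPM by TMM, under the floor of 200, with ratios of 1.33.

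With the members as the scale, the balance of large nickel differences lay further toward higher contigs than by the tools. It was nearer to that by total counts. A contig was counted when its log2 ratio reached 2 in either direction, which is 4-fold, and the exact interval of its fold excluded 1.5 in that direction. For nickel in root, 1560 contigs were higher and 327 lower, 3.11% of 60628 tested, against 1129 higher and 478 lower by TMM. For nickel in shoot, 4319 were higher and 1069 lower, 8.89% of those tested, against 3160 and 1416 by TMM. For root over shoot without nickel, 7972 were higher in root and 5611 in shoot (22.4%), and with nickel 7647 and 7616 (25.2%). The share of higher contigs was 82.7% for nickel in root and 80.2% in shoot, compared with 78.6% and 78.0% by total counts. It was 70.3% and 69.1% by TMM and 70.3% and 63.3% by DESeq2 size factors. No member passed this size, which the rule fixes.

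The single most abundant member bore on that scale. Without Lhav_v2_contig_214, the summed reads of the other 44 members gave 3981 higher and 1118 lower contigs for nickel in shoot. The share of higher contigs was then 78.1%, beside 78.0% by total counts. For nickel in root they gave 1562 and 326, almost as with all members. The log2 shift of the scale against total counts was 0.072 for nickel in shoot with all members and -0.0035 without this contig. For nickel in root it was 0.085 and 0.089.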

How the data were processed

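One RNA library of each of 4 groups was used. Per the labels' protocols, libraries were stranded and polyA-selected. The aligner, counting program and assembly were not given in the sources used here. Per the file headers, the deposited values are read counts per contig, whole numbers without normalization. CPM was computed from the total counts of 55660570 to 98108920 reads. TMM (edgeR 4.0.16) and size factors (DESeq2 1.42.0, R 4.3.3) used 60628 contigs with at least 10 reads in a library. Log2 ratios of members are plain CPM ratios; those of the 4-fold rule have a prior count of 2. Intervals are exact (Clopper-Pearson, 95%; scipy 1.17.1) and cover counting error only. With 1 library per group no test between groups was made. The calculations were tested on simulated data. The simulated libraries shared a common profile apart from some changed contigs in nickel root, so differences between organs were not covered. Members, limits and named contigs were chosen with earlier results of these data known. Contigs named by rule are those with the highest means, the lowest ratios, values nearest the limits, the extreme nickel ratios, and the largest distance in a left-out library. Alternatives were other scales, limits, filters and prior counts, and leaving out each library. Lists of reference genes and organ markers need gene names, so none was formed.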

Additional observations from a re-analysis of the deposited data

Results flagged for a closer look

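Some members are given here because their nickel differences had opposite signs in the 2 organs. Each of these differences had an exact interval that excluded a fold of 1. These organ contrasts were not tested, as every group had a single library. By total counts, 2 of the 45 members had more with nickel in root and less in shoot, and 6 showed the reverse. The shares of all 60628 contigs were 5.04% and 7.02%. Nothing is read from the members' counts, since the rule used the same values and members have far more reads than most contigs. By DESeq2 size factors only 4 members had more with nickel in shoot, so the count of 6 does not hold on that scale. On the total-count scale, the log2 nickel ratio of Lhav_v2_contig_4820 in root exceeded that in shoot by 0.66. For Lhav_v2_contig_26, subtracting the shoot value from the root value gave -0.96. Both contigs had been named as extremes of the nickel ratios. The shoot ratios include the re-analysed library.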

How the results depend on the processing

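The main number of members was 45. It was 171 with a floor of 100 CPM, 11 with 400 CPM, 18 with a tighter limit on the ratio, 99 with at most 2, and 54 to 95 when 1 library was left out. The members' read shares follow in the order control root, nickel root, control shoot and nickel shoot. They were 2.43%, 2.44%, 2.09% and 2.21% for members chosen with TMM, and 1.62%, 1.699%, 1.252% and 1.58% with DESeq2 size factors. A floor of 100 CPM gave 4.42%, 4.27%, 4.15% and 4.09%, and 400 CPM gave 1.36%, 1.27%, 1.32% and 1.196%. The tighter limit gave 1.404%, 1.34%, 1.39% and 1.26%, and at most 2 gave 6.77%, 6.75%, 6.59% and 5.78%. Without the contig with the most reads they were 1.73%, 1.62%, 1.56% and 1.565%. With 1 library left out of the choice they lay from 3.01% to 5.63%, 2.87% to 5.46%, 2.84% to 5.47% and 2.68% to 4.74%.

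The median log2 ratios follow in the order nickel in root, nickel in shoot, root over shoot without nickel and root over shoot with nickel. Members and ratios by TMM gave -0.15, -0.051, 0.13 and 0.083, and by DESeq2 size factors -0.125, -0.11, 0.12 and 0.13. The same 45 members gave -0.21, -0.33, -0.028 and -0.050 on the TMM scale and -0.21, -0.44, -0.093 and -0.0013 on the DESeq2 scale. A floor of 100 CPM gave -0.026, 0.039, 0.084 and 0.024, and 400 CPM gave -0.11, -0.15, 0.012 and 0.093. The tighter limit gave -0.076, -0.033, 0.012 and -0.0046, and at most 2 gave -0.060, 0.011, 0.21 and 0.18. With 1 library left out of the choice they lay from -0.076 to -0.021, -0.18 to 0.16, 0.059 to 0.31 and 0.0070 to 0.18. The cause of these moves was not tested.

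The contigs that stayed within the limit in the library left out numbered 101, 102, 109 and 108 with a ratio of at most 2, in the order of libraries above, against 45, 45, 48 and 50. By TMM the shares that stayed were 67.2%, 71.0%, 65.6% and 45.3%. The 4-fold counts kept within 1.5 times the reported number under all 8 settings in each of 4 comparisons. In all, 53 of 146 recalculated values stayed within their limits of counting error or 1.5 times a count. No paired analysis was possible because each group had 1 library and the groups share a single replicate number. Leaving out a library was not run for the 4-fold counts, since it removes a group. The planned background for the left-out libraries was 0 by construction and was replaced by the distance from the mean of the other 3.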

Other observations

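The contig numbers, which the rule did not use, ran from 26 to 6426 among the members, in a set numbered over 65936 contigs. Numbers up to 1000 were held by 19 of the 45 members (42.2%) and by 81 of the 183 other abundant contigs (44.3%). One pair of members had consecutive numbers, Lhav_v2_contig_996 and Lhav_v2_contig_997. By total counts, the first was higher with nickel in both organs (log2 ratios of 0.12 in root and 0.17 in shoot). The second was lower (-0.53 in root and -0.031 in shoot). How the numbers were given is not stated in the sources used here.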
